A study of Homo sapiens with 4 samples.

Results

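The genes described here are the Toll-like receptor adaptors and kinases: the TIR-domain adaptors MYD88, TIRAP, TICAM1 and TICAM2, the kinases IRAK1, IRAK2, IRAK3 and IRAK4, the ubiquitin ligase TRAF6, and LY96, the MD-2 partner of TLR4. Their probes were chosen by the gene name given in the scanner files, with no use of measured values. The genes themselves were chosen with earlier results of these data known. Of the 10 genes, 9 had a probe, and these 9 genes, of 27193 gene names on the array, were read by 13 of its 34127 non-control probes. TICAM2 had no probe of that name. All 13 probes were well above background on 4 of 4 arrays, and in none of them did miR-511 mimic move the level past the threshold.

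The arrays measured transcripts of THP1, an established human monoblastic AML cell line that carries the MLL-AF9 fusion. THP1 cells were transfected once with 30 nM of miR-511-5p mimic or of negative control #1 mimic, both synthetic miRNA precursors, and RNA was taken on day 2 from cells kept in low-serum medium with albumin. There were 2 independent experiments, and each gave 1 array per treatment, so that each group held 2 arrays and all 4 carried a transfected mimic. The cells came from 1 cell line, no untreated cells were compared here, and no Toll-like receptor ligand was named among the treatments.

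Toll-like receptors recognise microbial molecules, and in monocytes they drive cytokine production. On ligand binding, their cytoplasmic TIR domains recruit adaptors. MYD88 serves most of the receptors and TIRAP bridges it to TLR2 and TLR4, whereas TICAM1, also known as TRIF, serves TLR3 and TLR4, in the latter case through TICAM2, also known as TRAM. MYD88 gathers IRAK4, IRAK1 and IRAK2 into the myddosome, from which TRAF6 is activated towards NF-kB and MAP kinases, while IRAK3, also known as IRAK-M, restrains this signalling. LY96 binds lipopolysaccharide on the outside of TLR4.

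The sequence of the transfected miRNA is shown because it sets which transcripts can pair with it, and the bases 2 to 8 from the 5′ end, its seed, are in capitals (RefSeq, GRCh38.p14, chromosome 10, 17845122 to 17845142, plus strand):
hsa-miR-511-5p: gUGUCUUUugcucugcaguca
The complement of this seed, AAAGACA, was searched in the probe sequences in their own orientation only. It was found in 0 of the 13 member probes and in 331 of the 34127 probes of the array (0.97%). A 60-base probe covers a small stretch of its transcript, so that the search says nothing of the rest of these transcripts.

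Probe sequences are shown for IRAK1 and TICAM1, each of which was read by a pair of probes. Both lie on the minus strand in hg19 and are given 5′ to 3′. The IRAK1 probe at chrX:153278023-153278082 had the largest single difference among the members, and the TICAM1 probe at chr19:4816636-4816695 opposed the other TICAM1 probe in experiment 1:
IRAK1 (A_33_P3286616): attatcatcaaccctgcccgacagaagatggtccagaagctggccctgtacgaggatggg
TICAM1 (A_23_P376096): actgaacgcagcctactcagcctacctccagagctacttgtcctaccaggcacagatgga

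Per array, 64.8% to 69.3% of the 34127 probes were well above background and no spot was saturated. The cell line was checked against marker genes. All 7 monoblast and monocyte genes measured (SPI1, CD33, ITGAM, CD14, MPO, CSF1R and CD4) were well above background on 4 arrays, whereas the epithelial genes EPCAM and KRT5 and the fibroblast genes COL1A1 and PDGFRB were so on 0. Of the lymphoid genes, CD3D, CD8A and CD79A were well above background on 4 arrays, CD3E on 3 and MS4A1 on 0, and the erythroid gene HBB was so on 4. CD3D, HBB and CD8A passed at mean log2 intensities of 4.87, 5.12 and 5.84, and CD79A at 10.37. The dimmest member probe, TIRAP A_33_P3252719, lay among the lower of these at 5.29, so that its detection call says little on its own. In bulk RNA, fewer cells of a kind and less RNA per cell cannot be told apart, and the source of the lymphoid and erythroid signals was not tested.

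Values are log2 intensities after quantile normalization, which makes the 4 arrays share 1 distribution, and differences are miR-511 mimic minus control mimic. Levels of different probes are not comparable with each other, since each probe has its own brightness per transcript. Every p-value comes from limma fitted on all 22638 tested probes. A probe was called at an unadjusted p below 0.05, the threshold of the study. At this threshold 2.2% of all tested probes were called and 0 of the 13 member probes. After Benjamini-Hochberg adjustment 0 probes of the array passed, and the adjusted p of each of the 13 member probes was 1.00. The unadjusted p of the members ran from 0.285 for a TIRAP probe to 0.944 for IRAK4. Since each group held 2 arrays, the smallest p that an exact permutation of 1 probe could give, two-sided, is 0.333.

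**Figure D1:**
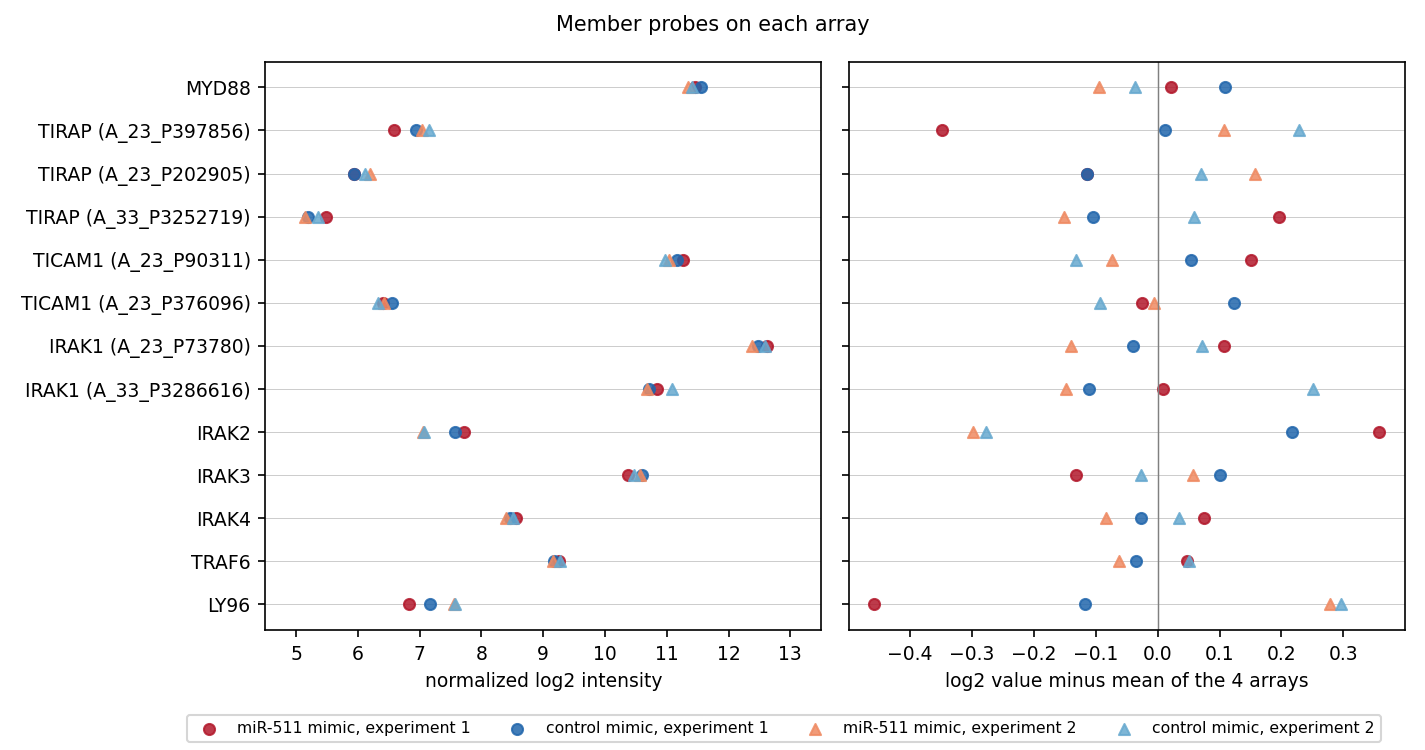
The 13 member probes on each of the 4 arrays, as normalized log2 intensity (left) and as the distance on the log2 scale from the probe's mean over the 4 arrays (right). Circles stand for experiment 1, triangles for experiment 2, red and orange for miR-511 mimic, dark and light blue for control mimic. In every line the red and orange points overlap the blue ones. In 6 of the 13 lines the circles lie apart from the triangles, most widely for LY96 and IRAK2.

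Of the adaptors, MYD88 had the steadiest difference. Its probe, at chr3:38183932-38183991 on the plus strand, read 11.46 with miR-511 mimic and 11.55 with control mimic in experiment 1, and 11.35 and 11.40 in experiment 2. MYD88 was therefore lower with miR-511 mimic in both experiments, by small amounts, and the highest array with miR-511 mimic lay above the lowest with control mimic. With miR-511 mimic the mean was 11.40 ± 0.082 (SD, n = 2), and with control mimic it was 11.48 ± 0.10 (SD, n = 2). The log2 difference was -0.072 ± 0.11 (SE), with a 95% interval of -0.37 to 0.23. MYD88 differed by less than the spread between arrays, and a mean difference of more than 0.37 in size lies outside the interval.

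TIRAP was read by 3 probes, and they did not move together. The probe with the highest mean signal (A_23_P397856, chr11:126163990-126164049, plus strand) read 6.58 with miR-511 mimic and 6.94 with control mimic in experiment 1, and 7.03 and 7.16 in experiment 2. It was lower with miR-511 mimic in both experiments, by 0.36 and by 0.12 on the log2 scale, yet the treatments overlapped, and both arrays of experiment 2 lay above both of experiment 1. The log2 difference was -0.24 ± 0.20 (SE), with a 95% interval of -0.78 to 0.30.

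The second TIRAP probe (A_23_P202905, chr11:126162931-126162990) read 5.93 with either mimic in experiment 1, and 6.20 with miR-511 mimic and 6.12 with control mimic in experiment 2. The TIRAP probe A_33_P3252719, at chr11:126163586-126163645, read 5.49 and 5.19 in experiment 1 and 5.14 and 5.35 in experiment 2, again with miR-511 mimic first. It thus turned direction between the experiments. The mean log2 differences of these TIRAP probes were 0.044 ± 0.14 (SE) and 0.044 ± 0.16 (SE), on the other side of 0 from the brightest TIRAP probe. All 3 intervals contain 0, and no direction can be given for TIRAP.

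TICAM1, the adaptor of the MYD88-independent branch, was read by a bright and a dim probe. The bright probe (A_23_P90311, chr19:4815995-4816054, minus strand) read 11.26 with miR-511 mimic and 11.16 with control mimic in experiment 1, and 11.03 and 10.98 in experiment 2. It was slightly higher with miR-511 mimic in both experiments, and both of its experiment 2 arrays were below both of its experiment 1 arrays. The log2 difference was 0.078 ± 0.13 (SE), with a 95% interval of -0.29 to 0.45. The dim TICAM1 probe, whose sequence is given above, read 6.40 and 6.55 in experiment 1 and 6.42 and 6.33 in experiment 2, with a log2 difference of -0.031 ± 0.12 (SE). The TICAM1 probes thus had opposite signs in experiment 1 and the same sign in experiment 2.

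On chromosome 5, 2 probes carry the name TMED7-TICAM2, a readthrough transcript of TICAM2 and its neighbour TMED7. The gene name rule does not count them as members, and whether they read TICAM2 itself was not tested. The probe A_33_P3327270 (chr5:114915314-114915373, minus strand) also lists a TICAM2 transcript in the files. It read 7.96 with miR-511 mimic and 7.90 with control mimic in experiment 1, and 7.92 and 7.72 in experiment 2, so that both miR-511 arrays were above both control arrays. The treatments did not overlap in 25.7% of all tested probes, and the log2 difference of 0.13 ± 0.11 (SE) was not past the threshold. The other TMED7-TICAM2 probe, A_32_P123088, read 8.70 with either mimic in experiment 1, and 8.68 and 8.52 in experiment 2 (log2 difference 0.081 ± 0.11, SE).

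Among the kinases, IRAK1, the substrate of IRAK4 in the myddosome, turned direction between the experiments in both of its probes. The brighter one (A_23_P73780, chrX:153276841-153276900) read 12.63 with miR-511 mimic and 12.48 with control mimic in experiment 1, and 12.38 and 12.59 in experiment 2. The other, A_33_P3286616, read 10.84 and 10.72 in experiment 1 and 10.68 and 11.08 in experiment 2. The differences of the IRAK1 probes were 0.15 and 0.12 in experiment 1 and -0.21 and -0.40 in experiment 2, so that the probes shared each sign. Both probes read the same 4 RNA samples, so that their likeness is no second replicate. Their mean log2 differences were -0.032 ± 0.13 (SE, 95% interval -0.39 to 0.32) and -0.14 ± 0.16 (SE, 95% interval -0.58 to 0.31).

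IRAK2, a kinase-like member of the same complex, differed by experiment. Its probe (chr3:10285302-10285361, plus strand) read 7.71 with miR-511 mimic and 7.57 with control mimic in experiment 1, against 7.06 and 7.08 in experiment 2. Both treatments were lower in experiment 2, by 0.66 with miR-511 mimic and 0.49 with control mimic, whereas the treatments differed by 0.14 and -0.020 within the experiments. The mean log2 difference of IRAK2 between treatments was 0.061 ± 0.30 (SE), and the 95% interval of -0.76 to 0.88 is wide. This fit does not pair the arrays by experiment, so that the step between experiments counts as spread.

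IRAK3, the inhibitory member of the family, read 10.37 with miR-511 mimic and 10.60 with control mimic in experiment 1, and 10.56 and 10.48 in experiment 2 (chr12:66642160-66642219). It was lower with miR-511 mimic in experiment 1 and higher in experiment 2, with a mean log2 difference of -0.075 ± 0.12 (SE, 95% interval -0.40 to 0.25).

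IRAK4, the kinase that starts the cascade, and TRAF6, the ligase that carries it on, had the mean differences nearest to 0 of the 13 probes. IRAK4 (chr12:44181072-44181131) read 8.56 with miR-511 mimic and 8.45 with control mimic in experiment 1, and 8.40 and 8.51 in experiment 2. TRAF6 (chr11:36511181-36511240, minus strand) read 9.26 and 9.18 in experiment 1 and 9.15 and 9.26 in experiment 2. Both genes were about 0.1 higher with miR-511 mimic in experiment 1 and about 0.1 lower in experiment 2. The mean log2 difference was -0.0079 ± 0.11 (SE, 95% interval -0.30 to 0.28) for IRAK4 and -0.016 ± 0.10 (SE, 95% interval -0.29 to 0.26) for TRAF6, so that a mean change of more than about 0.3 on the log2 scale lies outside the interval of either gene.

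LY96, which lies on chromosome 8 and whose product gives TLR4 its hold on lipopolysaccharide, had the widest interval. It read 6.82 with miR-511 mimic and 7.17 with control mimic in experiment 1, and 7.56 and 7.58 in experiment 2. Nearly all of the lower mean with miR-511 mimic came from experiment 1, where the difference was -0.34, against -0.018 in experiment 2. Both treatments were higher in experiment 2, by 0.74 with miR-511 mimic and 0.41 with control mimic. The mean log2 difference was -0.18 ± 0.31 (SE), with a 95% interval of -1.02 to 0.66, which contains 0 and also a halving of the LY96 signal. This fit does not pair the arrays by experiment, so that the step between experiments counts as spread. With the pairing, the SE for LY96 was 0.12.

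**Figure D2:**
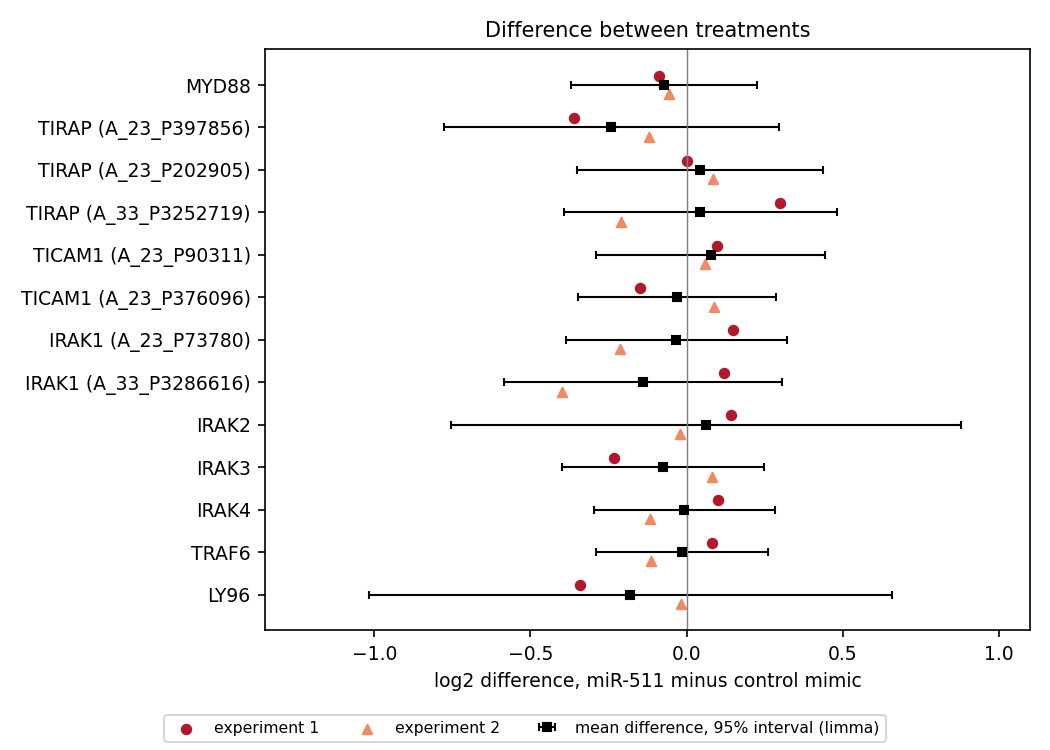
Log2 difference, miR-511 mimic minus control mimic, of each member probe in experiment 1 (circles), in experiment 2 (triangles) and as the mean of both with its 95% interval from limma (squares and bars). The intervals come from the fit that does not pair the arrays by experiment. All 13 intervals contain 0, and those of LY96 and IRAK2 are the widest.

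Across the 13 probes, the mean was lower with miR-511 mimic in 9 and higher in 4, while it was lower in 46.3% of all tested probes. The median log2 difference was -0.031 for the members and 0.0098 for all tested probes. No member passed a mean difference of 0.5 in size, which 3.64% of all tested probes did, and the members ranged from -0.24 to 0.078. The treatments did not overlap in 0 of 13 member probes and in 25.7% of all tested probes. With 1 probe per gene, the brightest, the mean was lower in 7 of 9 genes. On leaving out 1 array at a time, 12 of the 13 probes turned direction at least once, all but TIRAP A_23_P397856. The share of all tested probes that did so was not counted, so that this is not a trait of the members.

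The direction was not steady between the experiments. In experiment 1, 5 of 13 member probes were lower with miR-511 mimic (all tested probes, 42.2%), with a median difference of 0.082. In experiment 2, 9 of 13 were lower (all tested probes, 50.2%), with a median of -0.058. The sign was the same in both experiments for 5 of 13 member probes, against 51% of all tested probes. MYD88, LY96 and the brightest TIRAP probe were lower in both (3 of 13, against 21.7% of all tested probes). The bright TICAM1 probe and TIRAP A_23_P202905 were higher in both (2 of 13, against 29.3%), the latter by 0.00058 in experiment 1. IRAK3 and the dim TICAM1 probe were lower in experiment 1 and higher in experiment 2 (2 of 13, against 20.5%). The 6 probes that were higher in experiment 1 and lower in experiment 2 were the 2 of IRAK1 and those of IRAK2, IRAK4, TRAF6 and TIRAP A_33_P3252719. With other scalings, spot filters or background corrections the number of the 13 probes with the same sign in both experiments lay between 3 and 7. A difference within 1 experiment rests on 1 array per treatment and has no test.

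**Figure D3:**
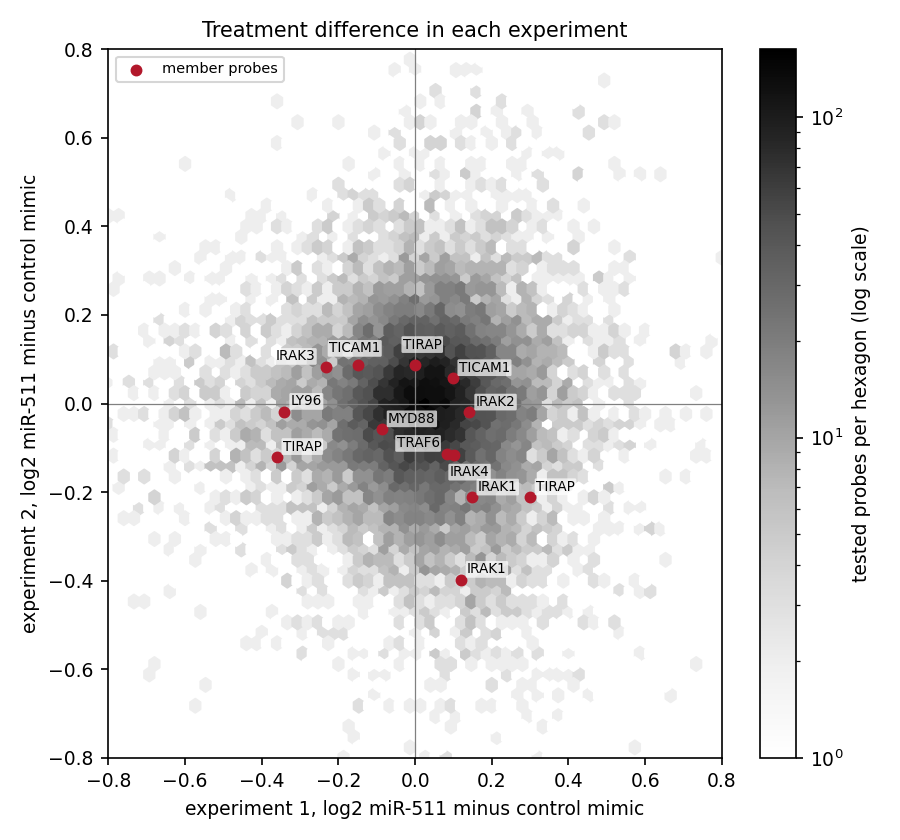
Log2 difference, miR-511 mimic minus control mimic, in experiment 1 (x axis) and experiment 2 (y axis) for the tested probes, as grey hexagons shaded by the number of probes on a log scale, and for the 13 member probes in red. The axes end at 0.8, which leaves out 1069 of the 22638 probes. The 6 red points at the lower right, of IRAK1, IRAK2, IRAK4, TRAF6 and TIRAP, were higher with miR-511 mimic in experiment 1 and lower in experiment 2.

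The size of the differences can be set against copies of the same probe on 1 array. For the 726 probes printed 10 times and well above background, the SD of the copies had a median of 0.13 at log2 intensities under 8 and of 0.064 at 8 or over. This gives a difference of 2 single spots an SD of 0.19 and 0.091. Each member was printed once. The differences of IRAK4, TRAF6 and MYD88 within an experiment, up to 0.12 in size, were near that of copies within an array. Among the larger ones at 8 or over were the -0.40 and -0.21 of the IRAK1 probes in experiment 2 and the -0.23 of IRAK3 in experiment 1. Among those under 8 were TIRAP A_23_P397856 (-0.36), LY96 (-0.34) and TIRAP A_33_P3252719 (0.30), all in experiment 1.

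The experiments differed from each other as well. In 6 of 13 member probes the 2 arrays of one experiment lay wholly above those of the other, as in 48.9% of all tested probes. These were MYD88, IRAK2, LY96, TICAM1 A_23_P90311 and the TIRAP probes A_23_P397856 and A_23_P202905. LY96 and both of these TIRAP probes were higher in experiment 2, and MYD88, TICAM1 A_23_P90311 and IRAK2 were lower. In all of these 6 but TIRAP A_23_P397856, the step between experiments was larger in either treatment than the difference between treatments in either experiment. The steps were largest for LY96 and IRAK2. What set the experiments apart was not tested.

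**Figure D4:**
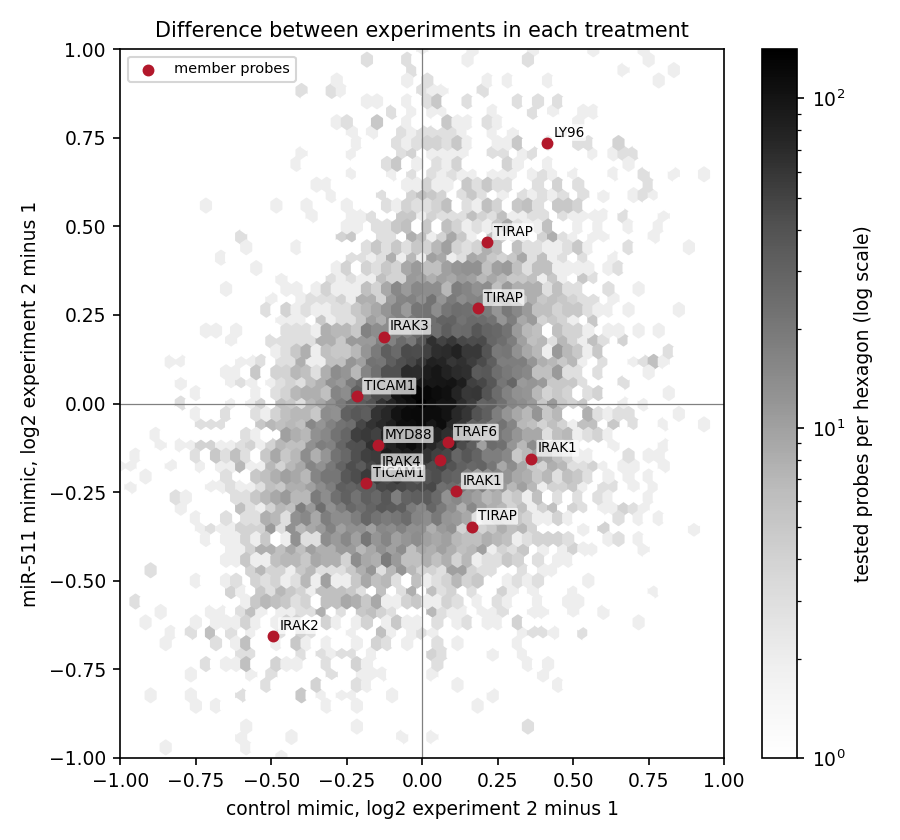
Log2 value in experiment 2 minus experiment 1, in the control mimic (x axis) and the miR-511 mimic (y axis), for the tested probes as grey hexagons shaded by the number of probes on a log scale, and for the 13 member probes in red. The axes end at 1, which leaves out 806 of the 22638 probes. LY96, at 0.41 and 0.74, and IRAK2, at -0.49 and -0.66, lie farthest from the centre.

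With the experiment number as a replicate block, 3.95% of all tested probes were called and 0 of the 13 member probes. The smallest block p among the members was 0.105 (limma), that of TIRAP A_23_P397856, and LY96 had 0.236. The block takes out the steps between experiments of LY96 and IRAK2, and neither gene was past the threshold with it. With the block their SEs were 0.12 and 0.090, against 0.31 and 0.30 without it. The wide intervals given above for these genes therefore include the steps between experiments.

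Other genes of the pathway were described from a list of 50 genes with 67 probes, in 4 roles. Of these probes 57 were well above background on 4 arrays and 8 on 0, and 59 probes of 44 genes were tested. Of these, 0 were called (all tested probes, 2.2%), also with the replicate block. The mean was lower with miR-511 mimic in 27 and higher in 32, with a median log2 difference of 0.011, and the treatments did not overlap in 13 of 59 (all tested probes, 25.7%).

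Of the receptors, TLR1, TLR2, TLR4, TLR5, TLR6 and TLR9 had a probe well above background on 4 arrays. TLR3, TLR7, TLR8 and TLR10 were well above background on 0 arrays, so that their level has only an upper bound. TLR3 signals through TICAM1 alone, and TLR7 and TLR8 through MYD88. The median log2 difference was 0.067 over the 7 receptor probes tested. It was -0.060 over the 13 probes that the list places under coreceptors and receptor trafficking, 7 of them lower and 6 higher. This role also holds the probes of BTK, a cytoplasmic kinase, at -0.17 and -0.15. Its median is therefore not that of coreceptors and trafficking factors alone. TLR4, the receptor that LY96 accompanies, read 8.92 with miR-511 mimic and 8.85 with control mimic in experiment 1, and 9.04 and 8.89 in experiment 2, with its brighter probe (log2 difference 0.11 ± 0.10, SE). Its other probe had a log2 difference of -0.10 ± 0.23 (SE), so that no direction can be given for TLR4.

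Over the 24 probes that the list places under downstream kinases and ubiquitin complexes the median was 0.051, and over 15 probes of negative regulators it was -0.093. The former role also holds TRAF3, TBK1 and PELI1, and the latter SIGIRR and CD180, so that neither is limited to genes downstream of TRAF6. UBE2V1, also known as UEV1A, which pairs with UBE2N to build the ubiquitin chains that TRAF6 makes, had the smallest p of the list, 0.0696 (limma, unadjusted), and is named for it after its values were seen. Its brighter probe read 13.42 and 13.21 in experiment 1 and 13.37 and 13.18 in experiment 2, with miR-511 mimic first, and its other probe 12.39 and 12.20, then 12.37 and 12.12. UBE2V1 was higher on both miR-511 arrays than on both control arrays in either probe, by 0.20 ± 0.090 (SE) and 0.23 ± 0.093 (SE) on the log2 scale, and neither was past the threshold.

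The list ran from -0.32 ± 0.23 (SE) for a probe of DOK3, an adaptor that dampens Toll-like receptor signalling, to 0.35 ± 0.30 (SE) for ECSIT, a partner of TRAF6. Both are named as the ends of the list, after their values were seen. Leaving out 1 array moved the DOK3 probe between -0.60, without the second miR-511 array, and -0.049, without the first, and ECSIT between -0.061, without the first control array, and 0.75, without the second. The ECSIT difference came from experiment 1, where it was 0.69, against 0.0047 in experiment 2. The brightest DOK3 probe had a log2 difference of 0.022, so that the DOK3 probes did not share a direction.

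**Figure D5:**
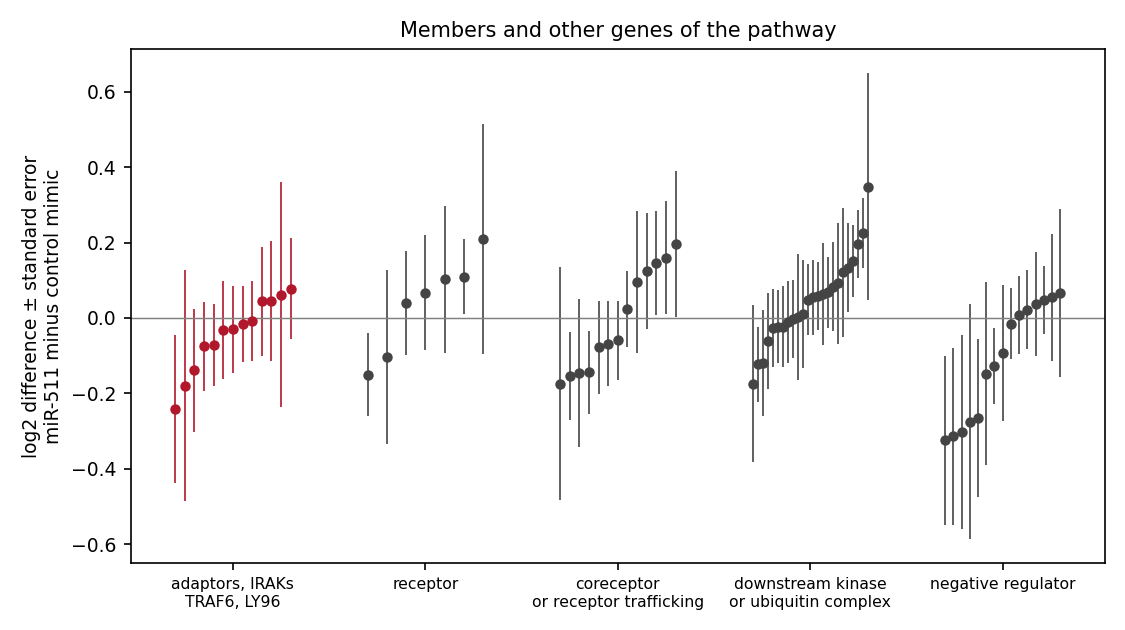
Mean log2 difference, miR-511 mimic minus control mimic, of the 13 member probes (red) and of the 59 tested probes of the other pathway genes by role (grey), each with its standard error from limma, in rising order within a role. The member probes lie between -0.24 and 0.078, and the other pathway probes between -0.32 for DOK3 and 0.35 for ECSIT.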

How the data were processed

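RNA of THP1 cells was hybridised to Agilent Human Whole Genome arrays with a single dye. The authors deposited 1 Feature Extraction file per array, with the background-subtracted processed intensity of each spot, and a log2 table whose 4 columns hold 1 set of values, as quantile normalization leaves them. The software version is 10.7.3.1 per the file headers and 10.5.1.1 per the submitters' processing notes. The annotation is hg19, and the RefSeq names (GRCh38.p14) of 13 of 13 member probes equalled those in the files. The place of a probe within its transcript was not analysed here.

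Non-control spots marked as outliers (232 to 301 per array, control spots not counted) were left out, log2 intensities were quantile normalized, and spots of a probe were averaged in R 4.3.3. The tested set was the 22638 of 34127 probes that had a value on all 4 arrays and, in 1 treatment or both, were well above background on each array. limma 3.58.1 (lmFit, eBayes) compared the treatments, two-sided, with 4.14 degrees of freedom. The labels give each array an experiment number, which pairs the arrays. Deviations from treatment means of same-numbered arrays correlated at 0.271 across probes, and a fit with it as a block was run too. All arrays lay on 1 slide. The functions were first tested on simulated data. The number of arrays limits the precision.

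All member genes were named. Members, pathway list and markers were chosen with earlier results of these data known. Some of the markers are not reported here. Alternatives were 75th percentile scaling, normexp with an offset of 50, testing dim probes too or requiring detection on all 4 arrays, use of marked spots, the log2 table as deposited, the block, an intensity trend and leaving out each array.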

Additional observations from a re-analysis of the deposited data

How the results depend on the processing

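No member probe passed the threshold under any of the 12 alternatives, and the smallest p was 0.0530 (limma), for TIRAP A_23_P397856 without the second miR-511 array. The replicate block, which pairs the arrays by experiment, moved the number of all tested probes called from 498 to 894 and changed no call of a member or of the pathway list. That number was 265 with normexp, 285 with an intensity trend and 1029 with no filter. Leaving out 1 array gave 517 to 1379, with 1379 without the second miR-511 array and 796 without the first control array. Of the pathway list, both UBE2V1 probes were called with normexp and with an intensity trend (2 probes each), and 0 to 5 probes were called on leaving out 1 array, with 5 (CD180, TNFAIP3, TLR4 and 2 of DOK3) without the second miR-511 array, 1 (SARM1) without the first and 1 (ECSIT) without the second control array. ECSIT ranged from -0.061, without the first control array, to 0.75, and the lowest DOK3 probe from -0.60, without the second miR-511 array, to -0.049, without the first. An arm with 1 array is assumed to vary like the other.

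Signs of the small member differences depended on single arrays. Apart from TRAF6, which was 0.045 with normexp, no member turned direction under the 8 alternatives that kept all arrays. The block, the intensity trend and both changes of the detection filter left the log2 differences as they were, so that no sign could turn under them. On leaving out 1 array, 12 of the 13 probes turned at least once, and the share of all tested probes that did so was not counted. The log2 difference then lay between -0.14 and 0.00061 for MYD88, -0.091 and 0.18 for TIRAP A_23_P202905, -0.13 and 0.22 for TIRAP A_33_P3252719, -0.034 and 0.19 for TICAM1 A_23_P90311, -0.14 and 0.078 for TICAM1 A_23_P376096, -0.16 and 0.093 for IRAK1 A_23_P73780, -0.32 and 0.042 for IRAK1 A_33_P3286616, -0.27 and 0.39 for IRAK2, -0.17 and 0.021 for IRAK3, -0.087 and 0.071 for IRAK4, -0.070 and 0.039 for TRAF6, and -0.55 and 0.19 for LY96. TIRAP A_23_P397856 stayed below 0, between -0.47 and -0.016. The number of member probes lower with miR-511 mimic lay between 6 and 10, and their median difference between -0.070 and 0.023. The causes were not tested.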
